A study of Mus musculus with 9 samples.

Results

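The data described here are the reactivities to dimethyl sulfate (DMS) along the 5′ untranslated region of mouse Tulp4, in 3 amplicons out of 161 in the series. The members were every entry of the deposited table that names the Tulp4 transcript: 592 of 32967 entries, covering 519 distinct positions. Of the entries 272 were for adenines (A) and cytosines (C), the bases DMS reads best, with 39 of these nucleotides read in 2 amplicons and counted in each. All 272 had counts and were tested. The gene was chosen on measured values of these samples: 1 of its amplicons had a more even profile in RNA refolded in vitro than in cells. Values of the in vitro group against the in-cell groups are therefore given as a description, with no test, whereas the comparison of the in-cell groups with each other was not used for the choice and was tested.

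All samples were total RNA of E14 (E14TG2a) mouse embryonic stem cells, with 3 replicates in each of 3 groups. In the ATP-depleted group, cells stayed for 10 min in glucose-free medium with 10 mM 2-deoxy-D-glucose and 10 mM sodium azide, and these agents stayed in all later media. Untreated cells went through the same steps without them, and both in-cell groups were exposed to 1.6% DMS for 6 min at 37 °C. The third group was refolded in vitro, and the sources used here do not give its buffer and DMS conditions. The labels describe the samples of each condition as independent. No sample without DMS was used, so signal unrelated to DMS is not known for single nucleotides. Means below are given ± SD over the 3 samples of a group (n = 3) unless another error is named.

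Tulp4 encodes a member of the tubby-like protein family with WD40 repeats and a SOCS box, a motif through which proteins join cullin ubiquitin ligases. A 5′ untranslated region lies ahead of the coding sequence, and its helices and upstream AUG codons can change how often ribosomes start on the main reading frame. DMS methylates the pairing face of A and C that are not base-paired or covered, and reverse transcriptase then writes the modified base as a mutation. Reactivity is given here in counts per 1000000 counts (CPM) of the same amplicon and sample, so a value says how the signal was shared out along an amplicon and not how strong it was in all. The Gini coefficient summarises that sharing: it is 0 when all A and C react alike and rises as the signal gathers on fewer of them.

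The amplicons are named by their bounds in the transcript. Amplicon 0 to 250 was read from position 26 to 229 and holds 44 A and 46 C. Amplicon 131 to 381 was read from 157 to 345, so positions 157 to 229 were read in both. Amplicon 434 to 684 was read from 466 to 664 and does not overlap them. Positions 26 to 50 of the table match GRCm38.p6 chr17:6138173-6138197 on the plus strand, in RefSeq's sequence around the annotated Tulp4 start, which puts position 1 at the annotated first base.

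The sequences below carry the difference described here, and T stands for U of the RNA. They come from the deposited table. Capitals mark the A and C of amplicon 0 to 250 whose 3 in vitro values all lay above the 3 untreated values in the first 4 lines, and all below them in the fifth. In the last line the capital marks the most reactive nucleotide of the amplicon in untreated cells, in the loop of a predicted hairpin.

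Helix I, strand 1, positions 65 to 83: gAAgcttCtggctgtgAgc
Helix I, strand 2, positions 191 to 211: gcttACAgcAgAAACttgcCg
Helix II, strand 1, positions 86 to 97: tgggggAAAgag
Helix II, strand 2, positions 164 to 175: gcCtttCCcctt
Stretch between the helix strands, positions 179 to 190: CaaCCttttCca
Hairpin, positions 26 to 47: cctgtgttcctAgggacacagg

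Helix I and helix II are stems of the lowest-energy fold that RNAfold predicted for the read stretch of amplicon 0 to 250, and each printed line holds some bases beyond the paired ones. Helix II pairs positions 87 to 95 with 166 to 174, where a run of G faces a run of C and a run of A faces a run of U. Helix I pairs 70 to 74 with 199 to 203 and 76 to 83 with 191 to 198. Both helices were picked out after the reactivities had been seen, so their values are a description. No structure was determined here, and the fold is a prediction at 37 °C of the isolated stretch.

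In amplicon 0 to 250 the A and C profile was more even in vitro than in either in-cell group. The Gini coefficient was 0.357, 0.373 and 0.364 in the 3 in vitro samples. In untreated cells it was 0.403, 0.397 and 0.412. After ATP depletion it was 0.425, 0.389 and 0.408. Every in vitro sample lay below every in-cell sample. The mean was 0.364 ± 0.00783 for refolded RNA, 0.404 ± 0.00738 for untreated cells and 0.407 ± 0.0182 for ATP-depleted cells. The difference was -0.0397 against untreated and -0.0429 against ATP-depleted cells. The in vitro libraries of this amplicon were smaller, at 13260 to 31396 counts where untreated cells had 24278 to 39869, and with all libraries thinned to equal depth the difference against untreated cells was -0.0394.

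Most amplicons of the table went the other way. Of the 161 amplicons, 82.0% were called by limma for the in vitro against untreated Gini coefficient, 80.1% with a higher and 1.86% with a lower value in vitro, and the median difference was 0.0923. The difference of amplicon 0 to 250 ranked 3 from the lowest. Those of the other Tulp4 amplicons ranked 6 (131 to 381) and 5 (434 to 684), at 0.00244 and 0.000395, so a lower value in vitro was seen in 1 of the 3 amplicons. Nothing is read from these ranks, since they are what brought the gene forward.

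**Figure D1:**
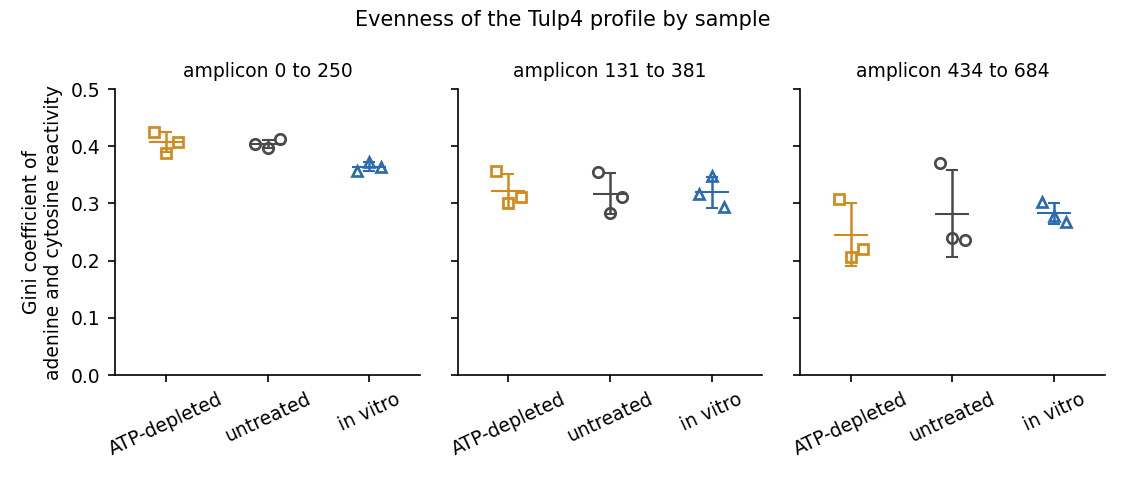
Gini coefficient of adenine and cytosine reactivity in each sample (points) for the 3 Tulp4 amplicons, with the mean and SD of the 3 replicates of each group. In amplicon 0 to 250 the in vitro samples, 0.357 to 0.373, lie below all in-cell samples; in amplicon 434 to 684 replicate 1 of both in-cell groups stands above its other replicates.

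The evening was stronger among A than among C. For A alone the Gini coefficient of amplicon 0 to 250 was 0.253 ± 0.0178 in vitro where untreated cells had 0.336 ± 0.00575 and ATP-depleted cells 0.337 ± 0.0161. For C alone the 3 groups had 0.411 ± 0.0216, 0.442 ± 0.0158 and 0.444 ± 0.0220, listed likewise, and the C values of the in vitro and untreated samples overlapped. For U the coefficient was 0.339 in vitro and 0.340 in untreated cells. In untreated cells U averaged 4576 ± 583 CPM, below the 5496 ± 121 CPM of C. The sample medians of U averaged 4597 CPM, above the 4048 CPM of C. With all 4 bases together the difference against untreated shrank to -0.0122 and that against ATP-depleted cells to -0.000851.

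Both ends of the profile differed. The weaker 45 of the 90 A and C carried 24.1%, 23.9% and 24.6% of the A and C signal in the in vitro samples. They carried 21.1%, 21.1% and 19.6% in untreated cells. The 10 strongest carried 25.9% ± 0.682 in vitro, less than the 27.8% ± 0.515 in untreated cells and again without overlap. Among A, the weaker members carried 32.4% ± 1.86 of their signal in vitro, with 25.9% ± 0.812 in untreated cells, and among C 19.6% ± 1.83 against 18.7% ± 0.835. G, which DMS hardly marks on its pairing face, averaged 1192, 1233 and 1200 CPM in vitro, beside 1319, 1070 and 1285 CPM in untreated cells. The G values overlapped, and the part of unmodified background in the evening was not tested.

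For A and C together the lower Gini coefficient was seen in the stretch that both overlapping amplicons read, positions 157 to 229 with 39 A and C. In amplicon 0 to 250 the coefficient of this stretch was 0.288, 0.312 and 0.302 in vitro and 0.387, 0.391 and 0.399 in untreated cells. In amplicon 131 to 381, a separate amplification of the same RNA, it was 0.303, 0.371 and 0.309 in vitro and 0.445, 0.370 and 0.411 in untreated cells. The first pair of groups did not overlap, and in the second the highest in vitro and the lowest untreated sample met. The mean differences were -0.0913 and -0.0811. After ATP depletion the stretch had 0.401 ± 0.0165 and 0.410 ± 0.0243, close to untreated cells.

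Outside the stretch A and C together gave no lower value, though A alone did in amplicon 0 to 250. In positions 26 to 156 of amplicon 0 to 250 the coefficient was 0.407 ± 0.00643 in vitro and 0.405 ± 0.0115 in untreated cells. For A alone these positions still gave a difference of -0.0684, with 0.0181 for C alone. In positions 230 to 345 of amplicon 131 to 381 the mean coefficient was higher in vitro, 0.308 ± 0.0264, while untreated cells had 0.240 ± 0.0364, with samples of 0.321, 0.326 and 0.278 beside 0.281, 0.211 and 0.229. The whole of amplicon 131 to 381 thus had mean Gini coefficients of 0.320 ± 0.0270 for refolded RNA, 0.317 ± 0.0357 for untreated and 0.323 ± 0.0296 for ATP-depleted cells, a lower shared stretch and a higher remainder together.

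**Figure D2:**
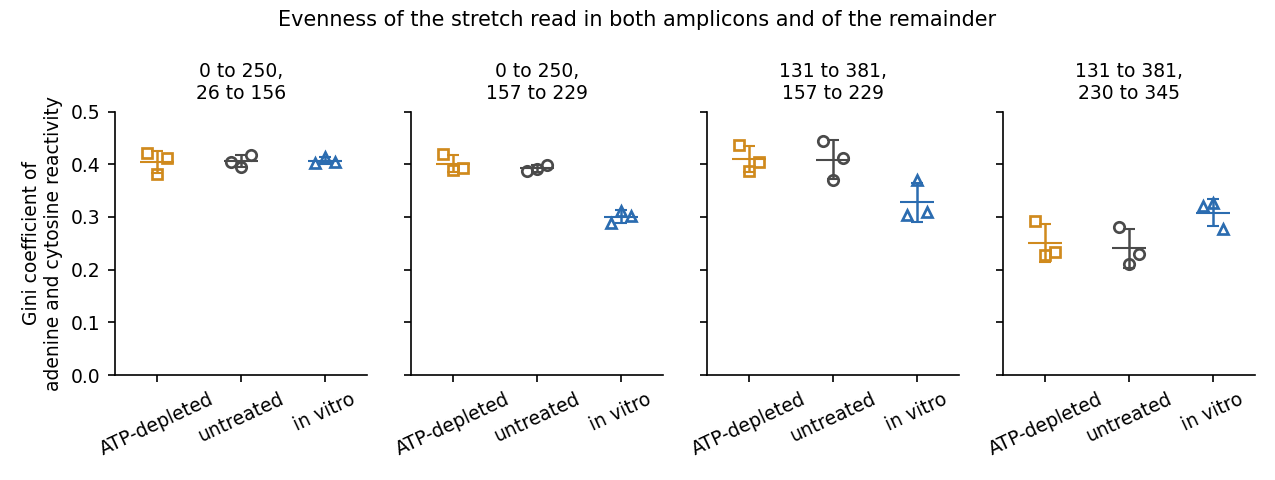
Gini coefficient of adenine and cytosine reactivity by sample for the stretch read in both amplicons (157 to 229, middle panels) and for the remainder of each amplicon (26 to 156 and 230 to 345, outer panels); lines give the mean and SD of 3 replicates. The shared stretch is lower in vitro in both amplicons, at 0.301 and 0.328 on average against 0.392 and 0.409 in untreated cells.

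Nucleotide by nucleotide, 22 A and C of amplicon 0 to 250 had all 3 in vitro values above all 3 untreated values, and 12 had them below. Among all A and C of the series, 17.3% lay above and 16.8% below. Of the 22 higher ones 15 were A and 7 C, and of the 12 lower ones 2 were A and 10 C. By the limma fit over the 16178 tested A and C, 15 of the 90 were higher and 5 lower at adjusted p under 0.05, against 8.08% and 8.18% of the table, and all 5 lower ones were C. Over the 3 amplicons the fit called 33 of 272, against 16.3% of the table. Against ATP-depleted cells, with the same in vitro samples, it called 28 higher and 9 lower, or 37 of 272, where the table had 8.31%, 6.56% and 14.9%. These calls rest on the contrasts that chose the gene and are counts only.

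The higher nucleotides were mostly ones predicted to pair. In the amplicon's own fold RNAfold paired 58 of the 90 A and C of the amplicon, 19 of the 22 higher ones and 6 of the 12 lower ones. Helix I and helix II held 14 of the 22, and none of their 20 A and C was among the lower ones. Positions A66, A67, C205 and C210 pair in the same fold next to helix I, between 64 and 68 on one side and 205 and 210 on the other. The hairpin of positions 26 to 34 and 39 to 47 had none of the 22.

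**Figure D3:**
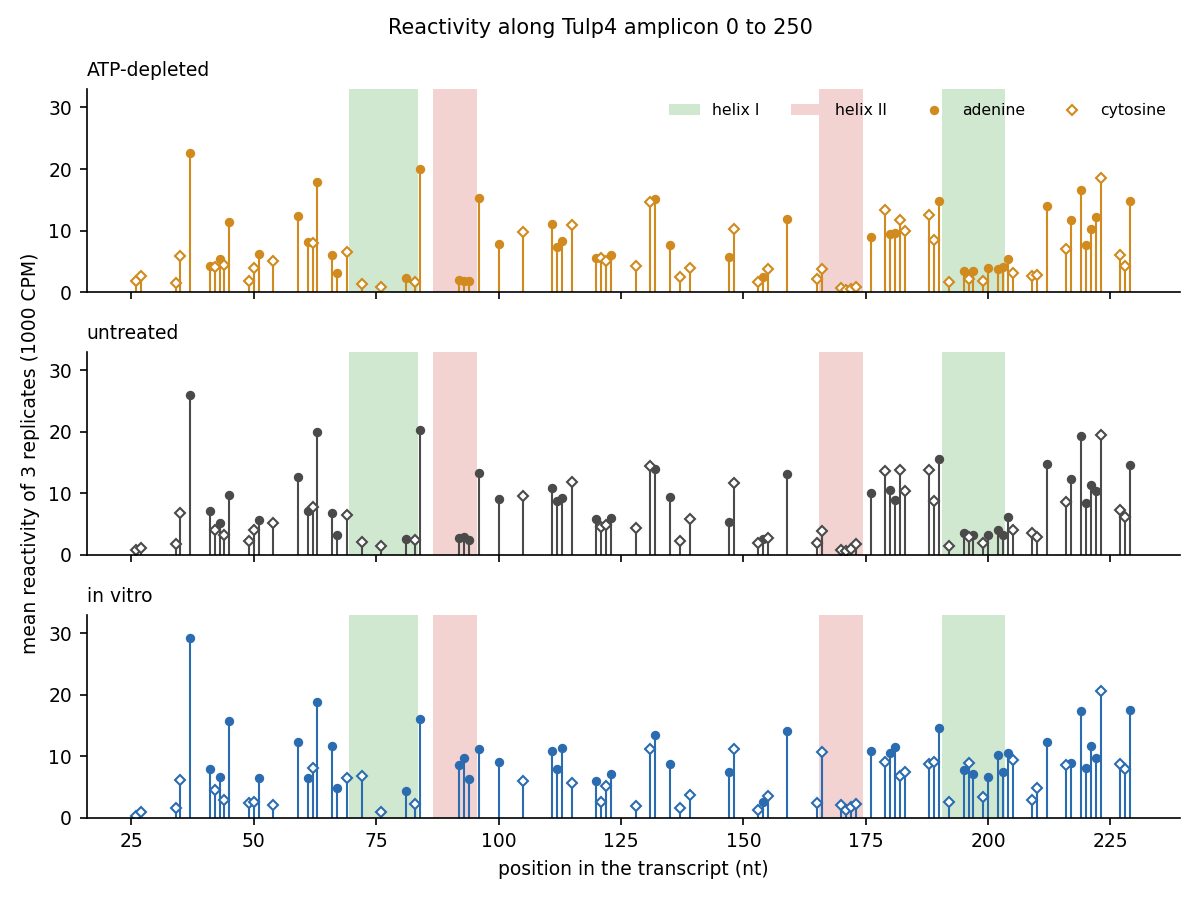
Mean reactivity of each adenine (filled) and cytosine (open) of amplicon 0 to 250 against its position, in units of 1000 CPM, for the 3 groups with 3 replicates each; shading marks the predicted strands of helix I and helix II. The shaded nucleotides are low in both in-cell groups, and all but C76 and C83 have a higher mean in vitro than in untreated cells. The highest nucleotides, such as A37 and C223, are in the same places in all groups.

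The stems compared were the 4 with 5 or more base pairs in a row, with neighbouring runs joined in helix I. Shorter predicted stems were not compared. Helix II had the largest ratio of the 4. Its 8 A and C averaged 5836, 4526 and 5722 CPM in the in vitro samples. In untreated cells they averaged 2232, 1757 and 2102 CPM. After ATP depletion they averaged 1440, 1477 and 1524 CPM. These averages did not overlap between groups, with in vitro highest and ATP-depleted lowest. Singly, only C172 and C173 of the 8 lay below every untreated sample after ATP depletion, and no nucleotide was called in that test. The ratio of in vitro to untreated was 2.64, with 6 of 8 nucleotides above every untreated sample. Its purine-rich strand gave 8212 ± 2050 CPM in vitro, with 2681 ± 540 CPM in untreated cells, and its pyrimidine-rich strand 3651 ± 95.2 against 1640 ± 185.

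Helix I gave the same order between in vitro and in-cell RNA. Its 12 A and C averaged 6058, 5255 and 5851 CPM in the in vitro samples. The untreated samples had 2690, 2416 and 2969 CPM and the ATP-depleted ones 2358, 2537 and 2629 CPM. The ratio of in vitro to untreated was 2.13, with 8 of 12 nucleotides above every untreated sample, and the in-cell groups overlapped. The strand near the 3′ end carried most of it, 6771 ± 755 against 2966 ± 285 CPM for its 8 nucleotides, while the 4 of the strand near the 5′ end gave 3622 ± 612 against 2144 ± 369 CPM.

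Together the 20 A and C of both helices took 17.3%, 14.2% and 16.3% of the A and C signal in vitro. They took 7.82%, 6.77% and 7.63% in untreated cells. In ATP-depleted cells their share was 6.41%, 7.29% and 6.67%. The remaining 70 A and C of the amplicon were no more even in vitro. Without the helices the Gini coefficient was 0.355 ± 0.00195 for refolded RNA, 0.341 ± 0.0155 for untreated and 0.336 ± 0.0174 for ATP-depleted cells. For the remaining A alone it was still lower in vitro, by a difference of -0.0164. So the amplicon's difference against untreated cells was -0.0397 with these 20 nucleotides and 0.0140 without them, and they had been picked for being higher.

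The second strands of both helices were read again in amplicon 131 to 381. The 5 A and C of helix II there averaged 3788, 3395 and 2154 CPM in vitro where untreated cells had 956.2, 1427 and 1356 CPM, with 4 of 5 nucleotides above every untreated sample. The 8 of helix I averaged 5590, 6381 and 5425 CPM in vitro where untreated cells had 4071, 2780 and 2566 CPM, with 3 of 8 above. Neither pair of groups overlapped in these averages. Of the 13 nucleotides of the shared stretch that were higher in vitro in amplicon 0 to 250, all 13 had a positive log2 difference in amplicon 131 to 381, and 7 again did not overlap with untreated cells. Of the 5 lower ones 4 had a negative difference, and none again stood apart from untreated cells. Both amplicons come from the same RNA samples, so this repeats the amplification and counting and not the experiment.

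**Figure D4:**
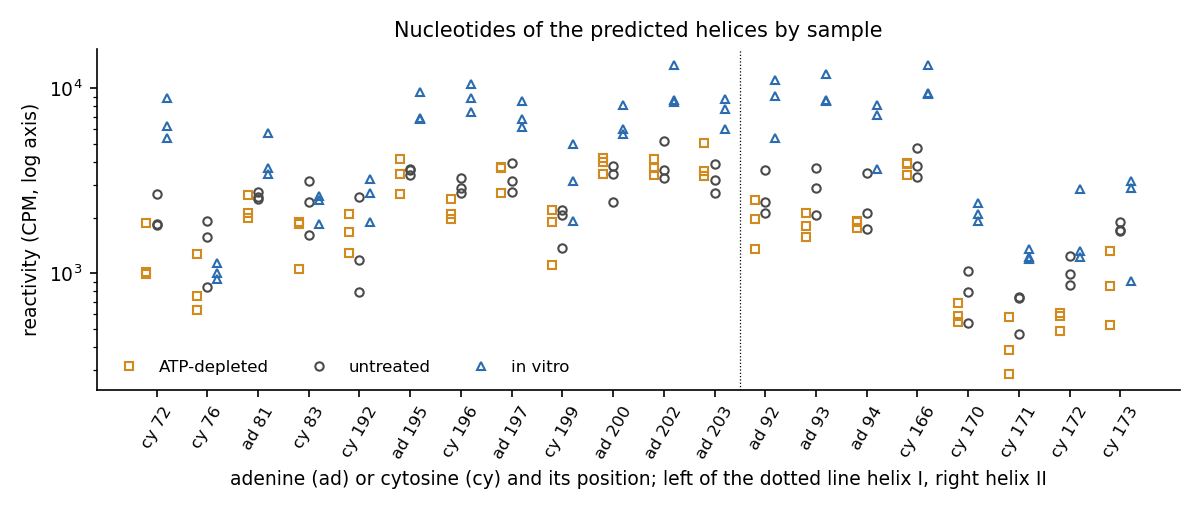
Reactivity of the 20 adenines (ad) and cytosines (cy) of helix I and helix II in amplicon 0 to 250, in CPM on a log axis, with 1 point for each of the 9 samples. In vitro points lie above all untreated points for 14 of the 20; cytosines 76, 170, 171 and 172 have the 4 lowest means in every group.

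The single nucleotides with the largest differences lay in these helices. A93, in the run of A of helix II, gave 12014, 8521 and 8708 CPM in vitro beside 2882, 2064 and 3714 CPM in untreated cells, a log2 difference of 1.09 on the log2(CPM + 3196.78) scale used throughout. That scale understates the ratio of weak nucleotides, which for A93 was 3.38 on the CPM. A92 beside it gave 9139, 5380 and 11158 against 3607, 2414 and 2106 CPM. C166, which faces G95 at the end of helix II, gave 9344, 13390 and 9492 against 4776, 3815 and 3328 CPM. In each the lowest in vitro sample was above the highest untreated one.

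In helix I, C196 gave 10576, 8914 and 7433 CPM in vitro beside 2720, 3289 and 2878 CPM in untreated cells, a log2 difference of 0.98. C72 on the other strand gave 8865, 6244 and 5375 against 2680, 1838 and 1817 CPM, a difference of 0.91. Read in the second amplicon, A197 had the largest difference of any Tulp4 nucleotide, 7611, 12249 and 7928 CPM in vitro against 2161, 3327 and 1740 CPM, or 1.14. In the first amplicon A197 gave 0.68, again with no overlap. After ATP depletion A93, A92 and C196 averaged 1827, 1938 and 2196 CPM, below their untreated means of 2886, 2709 and 2963 CPM. A93 and A92 overlapped with untreated samples, and each of these nucleotides had a limma adjusted p of 0.999943. In the second amplicon C196 differed by -0.08 after ATP depletion, with overlap. Some helix I nucleotides went the other way, such as A200 and A203, at 0.14 and 0.15 in the first amplicon.

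Of the 12 lower nucleotides 10 were C, and the others were A84 and A217. C182, in the stretch between the strands, gave 6263, 5929 and 8381 CPM in vitro beside 12756, 15771 and 12782 CPM in untreated cells, a difference of -0.76. C179, C183 and C188 of the same stretch averaged 8996, 7407 and 8793 CPM in vitro against 13631, 10342 and 13771 CPM. RNAfold left this stretch unpaired, and A181 within it was higher in vitro. C115 gave 4894, 6244 and 5930 against 11225, 10843 and 13489 CPM, also -0.76. C54 and C128 differed by -0.69 and -0.55, with 2015 and 1919 CPM in vitro. In the second amplicon C182 and C188 were read again, and neither stood apart from untreated cells there.

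Most of the strongest nucleotides in untreated cells were also strong in vitro. A37, in the loop of the hairpin printed above, was the highest in untreated cells, at 22227, 26427 and 29278 CPM, with 25978, 33888 and 27953 CPM in vitro. A84, next to the end of helix I, gave 20293, 18222 and 22332 CPM in untreated cells and 15847, 18181 and 14295 CPM in vitro, so all its in vitro values were lower. A63, C223 and A219 followed, with untreated means of 19924, 19411 and 19337 CPM and in vitro means of 18891, 20595 and 17287 CPM, all overlapping. A219 is paired in the fold, at an unpaired probability of 0.0696, and its reactivity was nevertheless high in all groups. The stem of 55 to 60 with 214 to 219 that holds it averaged 13240 ± 585 CPM over its 4 A and C in untreated cells, above the mean of the amplicon.

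**Figure D5:**
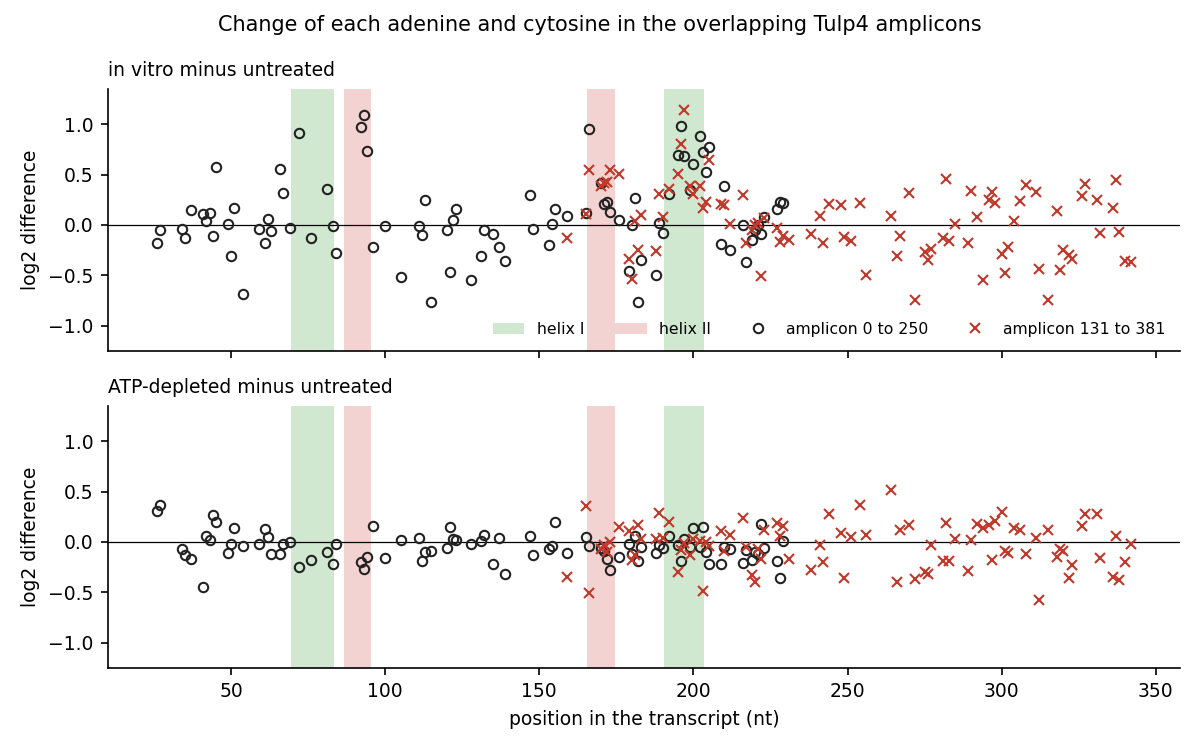
Log2 difference of each adenine and cytosine against its position, on the log2(CPM + 3196.78) scale, for amplicons 0 to 250 (circles) and 131 to 381 (crosses); upper panel in vitro minus untreated, lower panel ATP-depleted minus untreated, 3 replicates a group. In the upper panel the second strands of helix I and helix II are above 0 in both amplicons; in the lower panel the 8 helix II nucleotides of amplicon 0 to 250 lie slightly below 0, at -0.28 to -0.04.

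Predicted pairing tracked the in-cell profile of amplicon 0 to 250 more closely than the in vitro one. Across its 90 A and C, which are not independent, Spearman's correlation of reactivity with the predicted probability of being unpaired was 0.629 ± 0.0527 in untreated cells. It was 0.644 ± 0.0159 in ATP-depleted cells and 0.373 ± 0.0237 in vitro. With each of the other amplicons folded alone the order was turned. The correlation was 0.135 ± 0.0263 in untreated cells and 0.300 ± 0.0364 in vitro for 131 to 381, and 0.231 ± 0.109 and 0.430 ± 0.0461 for 434 to 684. When positions 26 to 345 were folded as 1 piece, the values for amplicon 0 to 250 drew closer, at 0.517 ± 0.0455 in untreated cells and 0.395 ± 0.0440 in vitro. For amplicon 131 to 381 they were then 0.405 ± 0.0202 and 0.463 ± 0.0596. The in vitro mean was again the higher one there, but the samples overlapped, so the separation depends on the fold. In that longer fold helix II kept a mean pair probability of 0.967 against 0.938 before, whereas the mean pair probabilities of the stems of helix I were 0.280 and 0.315, against 0.863 and 0.963.

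Split by the fold, A predicted to pair in amplicon 0 to 250 averaged 8588, 8554 and 9545 CPM in vitro, where untreated cells had 6483, 6451 and 7785 CPM. Unpaired A averaged 12570 ± 85.1 and 12370 ± 250 CPM. So paired A were higher in vitro without overlap, and unpaired A overlapped. Unpaired C were lower, with 7325, 7764 and 7580 CPM in vitro where untreated cells had 9325, 9194 and 9389 CPM. Paired C averaged 4245 ± 207 CPM in vitro and 3831 ± 151 CPM untreated, a small gap without overlap.

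Each amplicon was also split into windows of 25 positions, with a shorter last window. In amplicon 0 to 250 the share of A and C signal in vitro was higher than in untreated cells, without overlap, in positions 151 to 175 (6.05% ± 0.385 against 4.68% ± 0.187) and 76 to 100 (9.83% ± 0.638 against 8.72% ± 0.442). It was lower in positions 101 to 125 (8.95% ± 0.764 against 10.9% ± 0.588) and 126 to 150 (8.47% ± 0.649 against 10.3% ± 0.327). The first pair holds strands of helix II, and the second the part enclosed by helix II. In amplicon 131 to 381 the share was higher without overlap in positions 182 to 206 (15.6% ± 1.05 against 12.3% ± 0.686). In amplicon 434 to 684 it was so in positions 641 to 664 (24.4% ± 0.826 against 22.7% ± 0.508). No window of these amplicons was lower without overlap. Windows of other genes were not compared.

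Upstream AUG codons start short reading frames when ribosomes use them. The read stretches hold AUG at positions 132, 176, 251, 342, 509 and 587, and for all but the AUG at 342 a stop in the same frame was read, after 40, 37, 12, 8 and 11 codons. The AUG at 176 lies just after helix II, and its A gave 10781 ± 3190 CPM in vitro, with 10136 ± 421 CPM in untreated cells. The A of the AUG at 132 gave 13475 ± 647 and 14039 ± 1280 CPM. No A of these AUG codons stood apart in vitro from untreated cells. The U of the AUG at 176 did so in amplicon 131 to 381 alone, at 8493 ± 3130 against 3495 ± 2870 CPM, with 7405 ± 487 against 7690 ± 2310 CPM in amplicon 0 to 250.

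Beyond the shared stretch, amplicon 131 to 381 had its lowest in vitro minus untreated differences, among nucleotides without overlap, at C272, A294 and C256, with log2 differences of -0.74, -0.55 and -0.50. C272 gave 1416, 1300 and 2438 CPM in vitro beside 7843, 4392 and 3236 CPM in untreated cells. A180 and A222, inside the shared stretch, differed by -0.54 and -0.51. Of its 91 A and C, 12 were higher without overlap and 9 lower, where 17.3% and 16.8% of all A and C of the series were. In this amplicon's own fold 9 of the 12 higher ones were predicted unpaired, beside 45 of all 91. That fold leaves C196 and A197 unpaired, at probabilities of 0.959 and 0.997, although the fold of amplicon 0 to 250 pairs them in helix I, so the predicted pairing of the shared stretch depends on which piece was folded.

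Amplicon 434 to 684 was the least repeatable. Spearman's correlation among untreated replicates averaged 0.455 over its 91 A and C (range 0.312 to 0.738), against 0.934 in amplicon 0 to 250 and 0.807 in amplicon 131 to 381. Its Gini coefficient was 0.370, 0.241 and 0.236 in untreated cells, 0.308, 0.207 and 0.220 after ATP depletion, and 0.303, 0.277 and 0.267 in vitro. Replicate 1 of both in-cell groups was high, and these were the amplicon's smallest libraries, with 19700 and 16465 counts; the part of depth in this was not tested. Without untreated replicate 1 the in vitro difference was 0.0443 in place of 0.000395. In this amplicon the log2 difference of in vitro minus untreated was largest at C550 and A657, 0.77 and 0.76, and lowest at C618 and C619, -0.71 and -0.64, among nucleotides without overlap. C619 gave 82.4, 939 and 1465 CPM in vitro beside 3020, 2800 and 3288 CPM in untreated cells.

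Between ATP-depleted and untreated cells, a comparison that was tested, no Tulp4 nucleotide passed the threshold. Of the 272 A and C 0 were called by limma at adjusted p under 0.05, as in the whole table, where 0.00% of the 16178 were called. At an unadjusted limma p under 0.05 there were 9 of 272, against 3.93% of the table. All 3 values lay above those of untreated cells for 4 nucleotides and below for 23, against 4.45% and 7.92% of the table. The smallest adjusted limma p among the 272 was 0.999943.

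The naming rule took the largest differences without overlap in each amplicon, so their spread over the amplicons was set by the rule. Some overlapping nucleotides had larger rises than those named, such as A662 at 0.72. C26, the first read position, gave 1580, 1925 and 1743 CPM after ATP depletion and 463.5, 1188 and 787.8 CPM in untreated cells, a log2 difference of 0.31 (limma SE 0.11, adjusted p = 0.999943). A658 gave 2763, 3812 and 6880 against 17492, 8016 and 8844 CPM, a difference of -0.91 (limma SE 0.27, adjusted p = 0.999943). C166 of helix II, in the second amplicon, gave 798.7, 2124 and 1876 against 3454, 3905 and 3432 CPM, or -0.51, but in the first amplicon it differed by -0.04. A41, C228, A312 and A621 differed by -0.45, -0.36, -0.58 and -0.49, and A254 and C189 by 0.37 and 0.29. None passed the adjusted threshold.

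The evenness of each amplicon also did not pass the test. The Gini difference of ATP-depleted minus untreated cells in amplicon 0 to 250 was 0.00322 (limma SE 0.011, adjusted p = 0.984), with a 95% interval of -0.0222 to 0.0287. In amplicons 131 to 381 and 434 to 684 the differences were 0.0054 (SE 0.0231) and -0.037 (SE 0.0401), both with limma adjusted p = 0.984. For all 161 amplicons of the series, 0.00% were called, and the unadjusted p was under 0.05 in 8.07%. The interval of the last amplicon was -0.13 to 0.0558.

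The mean log2 reactivity of the A and C of an amplicon, which here reflects their share against G and U, differed by -0.0534 (limma SE 0.0283, adjusted p = 0.68) in amplicon 0 to 250. In the other amplicons it differed by -0.0359 (limma adjusted p = 0.68) and -0.0245 (limma adjusted p = 0.788). The median over all 161 amplicons was -0.0301, with 0.00% called and 6.21% at an unadjusted p under 0.05. Over the nucleotides, ATP-depleted and untreated samples correlated at a mean Spearman's rho of 0.944 in amplicon 0 to 250, as high as the untreated replicates among themselves at 0.934. Untreated and in vitro samples correlated at 0.751 and in vitro replicates at 0.806.

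Among other genes, 3 amplicons had Gini coefficients over the 9 samples most like those of amplicon 0 to 250, each taken from its own untreated mean. They were Ddx17 503 to 753, Chtop 1366 to 1616 and Jmjd1c 154 to 404, with root mean square differences of 0.0226, 0.0291 and 0.0315. Ddx17, an RNA helicase gene, gave 0.384 ± 0.0350 in vitro beside 0.412 ± 0.00702 in untreated cells there, and Jmjd1c, a gene of the jumonji demethylase family, 0.409 ± 0.0244 and 0.398 ± 0.0110. Chtop gave 0.260 ± 0.00774 and 0.255 ± 0.00852. The in vitro differences of these 3 amplicons were thus smaller in size than that of amplicon 0 to 250. Only the Ddx17 amplicon had a lower mean in vitro, and those of Chtop and Jmjd1c were slightly higher. In amplicon 731 to 981 of Ddx17 the in vitro mean was 0.331 and the untreated mean 0.439, further apart than in Tulp4. The same held in its amplicon 639 to 889, with 0.332 and 0.468. Its amplicons 172 to 422 and 333 to 583 were higher in vitro, at 0.311 against 0.288 and 0.402 against 0.333.

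Of 23 genes of the tubby family, SOCS-box proteins and related ubiquitin ligases, 2 were in the table, Rnf10 and Ube4b. Both encode ubiquitin ligases. The in vitro Gini coefficient was higher in 2 of 3 amplicons of Rnf10 and 3 of 3 of Ube4b by limma. Rnf10 107 to 357 read 0.405 ± 0.00495 in vitro and 0.357 ± 0.0078 in untreated cells, and Ube4b 207 to 457 read 0.435 ± 0.0133 and 0.315 ± 0.0136. With 80.1% of all amplicons called higher, this count says nothing particular about these genes.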

How the data were processed

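Recovered depth was 5743965 to 12616275 counts per sample and 13260 to 75859 counts per Tulp4 library. The authors deposited log2 values, 1 per nucleotide and sample; bcl2fastq, Bowtie2 and limma are named in the submitters' processing notes with no role; the build and mutation counter: not given in the sources used here. From the values, each was the log2 of a whole number plus 0.5 over a library size, per 1000000; whole numbers came out for all values of 1449 of 1449 libraries at a tolerance of 0.0001. Reactivity was 2 raised to the deposited value. The pseudocount, 3196.78 CPM, was 0.5 of the median over all A and C values, 6393.56 CPM. limma 3.58.1 (R 4.3.3) was fitted to all 9 samples with a mean per group over 16178 A and C of 16187, and over 161 amplicons of 69 transcripts; tests were two-sided with Benjamini-Hochberg adjustment, and the script was tested on simulated data. ViennaRNA 2.7.2 predicted pairing.

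Counts come from amplified cDNA and are not independent molecules. The members and lists were chosen with earlier results of these data known. Named nucleotides were, per amplicon, the 5 highest in untreated cells, the 5 largest rises and falls in vitro and the 2 largest rises and falls after ATP depletion among those without overlapping replicates, and the A and U of each AUG; named amplicons of other genes were the 3 with the most similar Gini coefficients. Other nucleotides named were chosen after their values were seen. RefSeq symbols matched 68 of 69 transcripts.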

Additional observations from a re-analysis of the deposited data

How the results depend on the processing

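The count of 0 called Tulp4 nucleotides between ATP-depleted and untreated cells was the same under every alternative run. The in vitro Gini difference of amplicon 0 to 250 against untreated cells was -0.0822 with A alone, -0.0306 with C alone, -0.0122 with all 4 bases and -0.0663 with 25 positions left out at each end, and -0.0438 to -0.0358 with a replicate left out. Against ATP-depleted cells it was -0.0833 with A alone, -0.000851 with all 4 bases and -0.0753 without the ends, and -0.0522 to -0.034 with a replicate left out. The other amplicons ran from -0.014 to 0.0214 and -0.0226 to 0.0443 against untreated cells with a replicate left out, and from -0.017 to 0.0139 and 0.0183 to 0.069 against ATP-depleted cells. The limma calls in vitro against untreated, 33 of 272, were 14 of 152 with A alone and 18 of 120 with C alone. Of all 272 they were 20 with only the 6 samples compared and 23 to 32 with a replicate left out.

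ATP depletion passed no test under any alternative, but small differences turned sign. With all 4 bases the Gini differences of amplicons 0 to 250 and 131 to 381 were -0.0113 and -0.0141, and the mean log2 differences 0.00144, 0.00515 and 0.00439. The last amplicon's mean was 0.0236 with each amplicon divided by its mean and 0.00169 with each sample divided by its median. With a replicate left out the Gini differences ranged from -0.00575 to 0.0125, -0.0115 to 0.0243 and -0.0686 to 0.00689, and the means from -0.0784 to -0.0338, -0.0543 to -0.0153 and -0.0632 to 0.0301. C228 and C189, read in the other amplicon, gave 0.06 and -0.03. The cause was not tested.

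The correlation with predicted pairing in amplicon 0 to 250 was 0.671 after ATP depletion and 0.453 in vitro with A alone, 0.328 in vitro with C alone, and, with the longer fold, 0.504 in ATP-depleted and 0.517 in untreated cells; that fold was an alternative chosen after seeing the data, as were the Gini coefficients by stretch and without the helices. With a replicate left out it was 0.635 to 0.65, 0.611 to 0.659 and 0.359 to 0.38 in ATP-depleted, untreated and in vitro samples. Deviations of same-numbered ATP-depleted and untreated samples correlated weakly, at 0.0406, 0.1 and 0.0309, although each ATP-depleted sample correlated best with its own number. Replicate 1 also had the highest Gini coefficient of both in-cell groups in amplicons 131 to 381 and 434 to 684. Whether replicate numbers mark pairs was not settled, and the main fit took the samples as unpaired. With the replicate block 28 nucleotides were called in vitro and 0 after ATP depletion, and the smallest adjusted p of an amplicon after ATP depletion was 0.459.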
